A study of Mus musculus with 24 samples.

Results

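Egr1, Egr2, Dusp1, Ier2, Ier3 and Btg2 are 6 immediate early genes that do not encode a subunit of the transcription factor AP-1. They were taken from the table by gene symbol. The rule used no measured value, but the genes were chosen with earlier results of these data known. All 6 were found among the 10721 genes of the table, and all 6 were among the 10081 genes tested, which had a group mean of at least 1 FPKM (fragments per kilobase of transcript, scaled to the fragments of the library) in at least 1 group. For Egr1, Egr2 and Btg2, at least 1 RANKL day had a group mean under that level, and these genes passed through other groups where they were higher.

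The libraries were bulk RNA-seq of mouse bone marrow cells grown into osteoclasts, the bone-resorbing cells of the monocyte lineage. Marrow came from 3 WT and 3 STING-deficient (KO) female mice of 10 to 12 weeks, and STING is an adaptor protein of innate DNA sensing; which mutant allele the KO mice carried is not given. WT mice were numbered 480, 529 and 531, and KO mice 481, 528 and 532. All cells were first expanded for 72 h on Petri plates with 40 ng/mL mCSF (macrophage colony-stimulating factor). The day 0 libraries came from these cells, without RANKL, the cytokine that drives osteoclast formation. For days 2, 3 and 4, cells were moved to tissue culture plastic at 25000 cells per well with 10 ng/mL RANKL and 20 ng/mL mCSF. The medium was partly renewed at day 2, and whether day 2 RNA was taken before or after that is not stated. Triplicate wells were pooled, so each of the 8 groups of genotype and day held 3 libraries, 1 from each mouse. No RANKL-free culture of days 2 to 4 was among the samples, so RANKL, the lower mCSF, replating and time in culture cannot be told apart in a change from day 0.

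Immediate early genes are transcribed within minutes of a stimulus, without new protein synthesis, and most of their mRNAs are short-lived. Growth factors such as mCSF reach them through the ERK kinases, which activate ETS-family partners of SRF (serum response factor) at CArG boxes. Stress and cAMP signals reach them through CREB-family factors at cAMP response elements (CREs), and inflammatory signals through NF-kB. In myeloid cells Egr1 and Egr2 are zinc-finger transcription factors that favour the macrophage fate, with Nab proteins as co-repressors, and Egr2 is known to raise Id genes, inhibitors of osteoclast formation. Dusp1 is a nuclear phosphatase that switches off the kinases p38 and JNK. Btg2 is an antiproliferative protein that binds the CNOT7 and CNOT8 deadenylases and is a target of p53. Ier3 is a small stress-induced protein that acts on cell survival and ERK signalling. Ier2 is a small nuclear protein.

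The promoters are shown because such signals are known to act through short motifs near the start of a gene. RefSeq promoter sequences (GRCm38.p6) were matched for 4 of the 6 genes, Egr2, Dusp1, Ier3 and Btg2. The 250 bases before the annotated start are printed 5′ to 3′ on the gene's strand. Of the 5 annotated starts of Egr2, the 1 nearest to the start of the GENCODE principal transcript was used. Capitals mark motif matches on either strand. Motifs were the CRE (TGACGTCA) or its short core (TGACG), the CArG box, the EGR site (GCGNGGGCG), an ETS site (CCGGAA) and the NF-kB site.
Egr2, chr10:67537619-67537868, plus strand: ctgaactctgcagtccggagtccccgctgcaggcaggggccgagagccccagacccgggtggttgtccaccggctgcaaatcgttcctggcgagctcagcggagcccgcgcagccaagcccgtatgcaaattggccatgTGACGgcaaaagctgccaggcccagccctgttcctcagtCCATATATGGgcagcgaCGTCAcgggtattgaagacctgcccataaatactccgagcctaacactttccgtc
Dusp1, chr17:26508473-26508722, minus strand: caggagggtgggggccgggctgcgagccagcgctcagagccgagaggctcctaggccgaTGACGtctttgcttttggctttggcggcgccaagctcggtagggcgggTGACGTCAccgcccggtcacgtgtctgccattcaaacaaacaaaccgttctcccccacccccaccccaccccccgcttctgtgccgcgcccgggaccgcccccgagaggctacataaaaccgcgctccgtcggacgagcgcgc
Ier3, chr17:35821463-35821712, plus strand: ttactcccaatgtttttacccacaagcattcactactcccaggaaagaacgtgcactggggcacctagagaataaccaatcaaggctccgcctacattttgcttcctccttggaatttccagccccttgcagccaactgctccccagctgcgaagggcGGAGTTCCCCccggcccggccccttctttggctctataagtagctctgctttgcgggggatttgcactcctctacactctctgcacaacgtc
Btg2, chr1:134079156-134079405, minus strand: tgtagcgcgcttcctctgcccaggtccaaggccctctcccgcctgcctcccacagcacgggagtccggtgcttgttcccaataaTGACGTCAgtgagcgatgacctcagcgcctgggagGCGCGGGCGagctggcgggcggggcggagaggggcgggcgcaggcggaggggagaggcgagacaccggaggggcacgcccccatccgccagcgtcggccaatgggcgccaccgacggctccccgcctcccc

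Counted back from the start, the Dusp1 window held a full CRE at -143 and a separate core at -191. The Btg2 window held a full CRE at -166 and an EGR site (GCGCGGGCG) at -131. The same 8-letter CRE was found in 1.55% of the 32817 mouse promoter windows of this length, and the EGR site in 4.7%. The Egr2 window held a CArG box (CCATATATGG) at -72, between CRE cores at -111 and -55. A CArG box was found in 1.47% of windows and a CRE core, which every full CRE also contains, in 17.7%. The Ier3 window held an NF-kB site (GGAGTTCCCC) at -92, a match found in 7.25% of windows. None of the 4 windows held the ETS site CCGGAA or the letters TATAAA, found in 12% and 12.4% of windows. Shorter ETS matches were not searched for. Their GC content was 61.6% (Egr2), 68.4% (Dusp1), 54.4% (Ier3) and 73.2% (Btg2), and the median of all windows was 52.4%. So Dusp1 and Btg2 shared the full CRE, and Egr2 was the window with a CArG box.

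The genes were compact. In the RefSeq annotation of the mm10 genome Egr1 spans chr18:34861207-34864956, Egr2 chr10:67534469-67542188, Dusp1 chr17:26505591-26508472, Ier2 chr8:84661331-84662852, Ier3 chr17:35821713-35822911 and Btg2 chr1:134074865-134079155. Their spans were 3750, 7720, 2882, 1522, 1199 and 4291 bases in that order, against a median of 22178.5 bases over the 99.3% of tested genes that had a value. Ier2 had 1 exon, Dusp1 had 4, and the other 4 genes had 2, against a median of 9. The pentamer ATTTA, the core of the AU-rich elements that Zfp36 (tristetraprolin) binds to speed mRNA decay, occurred 2 times in the 3′UTR of Egr1, 3 times in that of Egr2, 4 times in that of Dusp1, and 5 times in those of Ier3 and Btg2. None was found in the 3′UTR of Ier2. Per kilobase of 3′UTR the counts were 8.16 for Ier3, 5.80 for Dusp1, 2.50 for Egr2, 2.27 for Btg2 and 1.64 for Egr1, against a median of 1.25 over the genes tested. All but Ier2 thus lay above the median. Egr1 lies 868721 bases from Sting1, the gene for STING, on the same chromosome (chr18:35733678-35740554).

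Sting1, listed in the table under its older symbol Tmem173, was checked first. At day 0 it read 28.7, 25.4 and 21.3 FPKM in WT mice 480, 529 and 531, and 5.08, 4.57 and 4.89 FPKM in KO mice 481, 528 and 532, as the labels have it. The gap was smaller later, so the check is weaker there. At day 3 Sting1 read 4.03, 4.69 and 4.58 FPKM (WT) and 3.76, 3.79 and 3.19 FPKM (KO). At day 4 the values were 3.38, 4.93 and 5.01 FPKM (WT) and 2.65, 2.86 and 2.85 FPKM (KO). Absolute depth is unknown, because FPKM do not keep it. The steps between low values gave relative depths of 0.932 to 1.16 between libraries of a group, except for WT mouse 531 at day 3, at 0.691 of mice 480 and 529. The 10 osteoclast markers summed to 79.6 to 191 FPKM at day 0 and to 8447 to 49924 FPKM on days 2 to 4. The 7 macrophage markers in the table summed to 12754 to 24350 FPKM at day 0 and to 4101 to 11186 FPKM afterwards. Day 0 libraries also held RNA of genes listed as markers of other marrow cells. The 11 of 13 neutrophil markers in the table summed to 5939 to 16147 FPKM at day 0 and to 74.9 to 224 FPKM on days 2 to 4, and the 7 of 10 B cell markers to 26.1 to 126 FPKM and to 0.162 to 0.904 FPKM. On days 2 to 4 the B cell gene Pax5 was listed at 0 in all libraries, and Ms4a1 and Ebf1 were under 0.1 FPKM. The 4 of 6 basophil and mast cell markers summed to 5.21 to 21.2 FPKM at day 0 and to 0.264 to 0.906 FPKM later, and the 4 of 9 erythroid markers to 9.31 to 31.0 FPKM and to 0 to 0.469 FPKM. Of the 3 of 6 stromal markers the sum was 0.616 to 1.72 FPKM at day 0 and 0.0208 to 3.99 FPKM later, and the 1 of 7 T and NK cell markers read 0.408 to 1.34 FPKM and 0 to 0.172 FPKM. The neutrophil, B cell, basophil and mast cell, erythroid, and T and NK cell sums were lower after day 0, as the 6 genes were, whereas the stromal sum after day 0 spanned its day 0 range. The part of these sums in each fall from day 0 was not tested. In bulk RNA, fewer cells of a type and less RNA per cell cannot be told apart.

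The first question was how the 6 genes changed between the RANKL-naive precursors and day 2. All 6 fell in both genotypes, in 3 of 3 WT and 3 of 3 KO mice each, and for every gene the day 0 and day 2 groups did not overlap. Across the table a fall past the threshold was common, at 40.1% of tested genes in WT and 39.4% in KO, a rise was found for 41.2% and 40.1%, and groups did not overlap for 76.9% and 77.9% of genes. The genes of the table had been selected by a rule that is not named. All such shares here refer to that selection, and may differ from those of all mouse genes. The test was limma on log2(FPKM + 1), two-sided, with Benjamini-Hochberg adjustment over all tested genes and a threshold of 0.05. Because 1 FPKM is added before the logarithm, differences on this scale understate the change of genes with low values, and the ratio of group means in FPKM is given beside them. The median difference of the 6 genes was -3.25 in WT and -3.11 in KO, against a median of all genes of 0.00 in both.

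Egr1 stood at 14.0, 21.6 and 22.0 FPKM in WT mice 480, 529 and 531 at day 0 and at 1.97, 0.732 and 0.626 FPKM at day 2. In KO mice 481, 528 and 532 it stood at 31.0, 11.1 and 17.9 FPKM and then at 2.13, 0.905 and 1.09 FPKM. The lowest day 0 library was thus several-fold above the highest day 2 library. The mean at day 0 was 17.3 times that at day 2 in WT and 14.6 times in KO, with log2 differences of -3.29 (SE 0.75, limma adjusted p = 0.000471) and -3.07 (SE 0.75, limma adjusted p = 0.000928).

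Egr2 was the least abundant of the 6 genes at day 0 in 6 of 6 libraries. It read 6.80, 4.64 and 3.21 FPKM in the WT libraries and 5.62, 3.90 and 3.80 FPKM in the KO libraries. At day 2 the values were 0.776, 0.543 and 0.596 FPKM and 0.480, 0.685 and 0.607 FPKM, under 1 FPKM in all 6 libraries. The log2 differences were -1.80 (SE 0.16, limma adjusted p = 3.09e-09) in WT and -1.76 (SE 0.16, limma adjusted p = 4.72e-09) in KO. Its mean in FPKM dropped 7.65-fold and 7.52-fold, so the added 1 FPKM weighs on the log2 value here.

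Dusp1, the MAP kinase phosphatase, was the most abundant of the 6 at day 0 in 6 of 6 libraries, with WT values of 174, 216 and 201 FPKM and KO values of 114, 214 and 244 FPKM. At day 2 it read 12.3, 12.0 and 14.1 FPKM (WT) and 10.7, 11.5 and 11.3 FPKM (KO). The 6 libraries of day 2 lay within a narrow band, far below the lowest day 0 value. The day 0 mean was higher than 94.0% of tested genes in WT and the day 2 mean higher than 51.7%. Its log2 differences were -3.84 in WT (SE 0.20, limma adjusted p = 5.61e-13) and -3.91 in KO (SE 0.20, limma adjusted p = 4.36e-13), and its means in FPKM differed 15.4-fold and 17.1-fold.

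Ier3 dropped about as far. It read 100.5, 60.2 and 76.5 FPKM (WT) and 76.0, 63.5 and 54.7 FPKM (KO) at day 0, and 3.96, 4.87 and 6.21 FPKM and 3.21, 3.94 and 3.91 FPKM at day 2. The log2 differences were -3.72 (SE 0.17, limma adjusted p = 1.06e-13) and -3.80 (SE 0.17, limma adjusted p = 7.66e-14), and the means differed 15.8-fold and 17.6-fold. Mouse 480 had the highest WT value at day 0 and the lowest at day 2, and mouse 481 did the same among KO mice.

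Ier2 kept the most of its day 0 level. It read 79.9, 62.1 and 77.1 FPKM (WT) and 92.5, 56.9 and 52.5 FPKM (KO) at day 0. At day 2 the values were 24.1, 20.8 and 22.8 FPKM and 22.2, 21.6 and 21.8 FPKM. The means differed 3.24-fold and 3.08-fold, with log2 differences of -1.65 (SE 0.25, limma adjusted p = 3.68e-06) and -1.53 (SE 0.25, limma adjusted p = 9.77e-06). From day 2 on, Ier2 was the most abundant of the 6 in every library.

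Btg2, the antiproliferative factor, went from 23.0, 11.4 and 12.0 FPKM (WT) and 19.3, 10.7 and 12.5 FPKM (KO) to 0.636, 0.755 and 0.715 FPKM and 0.776, 0.618 and 0.621 FPKM. All day 2 libraries lay under 1 FPKM, and the means differed 22.0-fold and 21.1-fold, the largest ratios among the 6 genes at day 2. The log2 differences were -3.21 (SE 0.20, limma adjusted p = 9.15e-12) and -3.14 (SE 0.20, limma adjusted p = 1.3e-11). At day 0 Btg2 in the lower of mice 480 and 481 was 1.55 times its value in the highest of the other 4 mice. Egr2 (1.21) and Ier2 (1.04) were also higher in both of these mice, and Dusp1 was lower in both. Of all tested genes 18.6% were higher in these mice at day 0 and 16.7% were lower. Among genes with at least 1 FPKM in both mice, 143 were higher by more than 1.5-fold. The neutrophil marker sum was also highest in those mice, at 16147 and 13058 FPKM against 5939 to 9183 FPKM, as was the B cell sum, at 97.0 and 126 FPKM against 26.1 to 51.3 FPKM. Whether such cells contributed to the day 0 level of Btg2 was not tested.

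**Figure D1:**
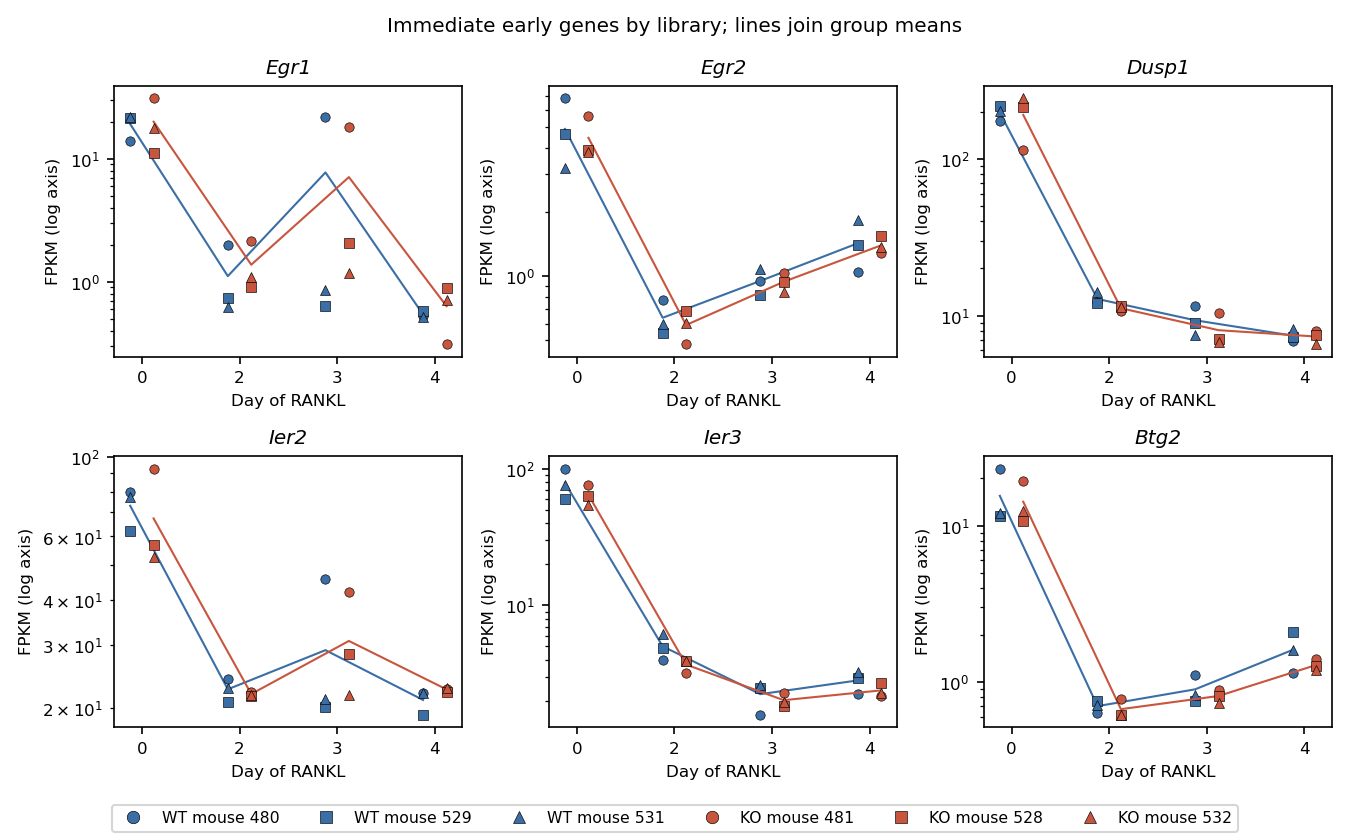
FPKM on a log axis against day of RANKL for the 6 genes, with 1 point per library (blue WT, red KO, 1 symbol per mouse) and lines joining the group means. All 6 genes are highest at day 0 in every mouse except Egr1 in WT mouse 480, which read 14.0 FPKM at day 0 and 21.7 FPKM at day 3.

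At day 4 all 6 genes were still below day 0 in both genotypes, in 3 of 3 mice each and with no overlap of groups. The background was a fall of 44.6% of tested genes in WT and 43.1% in KO, and groups not overlapping for 82.4% and 82.8%. The log2 differences in WT and KO were -3.68 and -3.59 for Egr1, -1.24 and -1.17 for Egr2, -4.55 and -4.45 for Dusp1, -1.74 and -1.49 for Ier2, -4.37 and -4.27 for Ier3, and -2.61 and -2.69 for Btg2. For Egr1, Dusp1 and Ier3 these were larger in size than at day 2. For Egr2 and Btg2 they were smaller. The weakest limma adjusted p was 0.000184, for Egr1 in KO. On the FPKM scale the ratio of the day 0 mean to the day 4 mean was highest for Egr1, at 35.5 in WT and 31.7 in KO. It was 28.1 and 27.2 for Ier3, 26.4 and 25.9 for Dusp1, and 9.63 and 11.0 for Btg2. It was lowest for Ier2 (3.47 and 2.99) and Egr2 (3.42 and 3.18).

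The second question was what the genes did among the RANKL days. From day 2 to day 3 only Ier3 passed the threshold. It read 1.58, 2.50 and 2.63 FPKM (WT) and 2.26, 1.83 and 1.96 FPKM (KO) at day 3. All 6 values lay below all day 2 values, and it fell in 3 of 3 WT and 3 of 3 KO mice. The log2 differences were -0.89 (SE 0.17, limma adjusted p = 0.000544) in WT and -0.63 (SE 0.17, limma adjusted p = 0.00855) in KO. In KO the call was lost when mouse 528 or mouse 532 was left out (limma adjusted p = 0.122 and 0.0965). Of all tested genes, 35.5% passed in WT and 30.8% in KO over this day, and 17.2% and 13.6% fell. At day 4 Ier3 read 2.23, 2.95 and 3.27 FPKM (WT) and 2.16, 2.70 and 2.29 FPKM (KO), and the differences from day 3 (0.25 and 0.16 on the log2 scale) did not pass.

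Dusp1 read 11.6, 8.98 and 7.49 FPKM (WT) and 10.3, 7.08 and 6.83 FPKM (KO) at day 3. Each mouse was lower than at day 2, and neither pair of groups overlapped, as for 54.4% of genes in each genotype. The log2 differences were -0.43 (limma adjusted p = 0.103) and -0.44 (limma adjusted p = 0.103), which did not pass. Without the day 3 libraries of mice 480 and 481, left out after their values were seen, they were -0.58 (limma adjusted p = 0.0412) and -0.61 (limma adjusted p = 0.0343), which passed. At day 4 Dusp1 read 6.86, 7.33 and 8.17 FPKM (WT) and 7.93, 7.57 and 6.57 FPKM (KO).

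Egr2 and Btg2 had their lowest group means at day 2 and higher ones at day 4. Egr2 read 0.952, 0.816 and 1.08 FPKM (WT) and 1.04, 0.944 and 0.845 FPKM (KO) at day 3, and 1.05, 1.41 and 1.82 FPKM and 1.29, 1.53 and 1.37 FPKM at day 4. Each of the 6 mice was higher at day 3 than at day 2 and higher at day 4 than at day 3. The log2 differences of about 0.25 and 0.29 for the first step and 0.31 and 0.30 for the second did not pass (limma adjusted p = 0.244, 0.195, 0.194 and 0.211). Btg2 read 1.11, 0.754 and 0.830 FPKM (WT) and 0.894, 0.816 and 0.736 FPKM (KO) at day 3, and 1.13, 2.09 and 1.59 FPKM and 1.40, 1.27 and 1.20 FPKM at day 4. Its day 4 groups lay wholly above day 3 in both genotypes. Groups that did not overlap, in either direction, were found for 48.2% of genes in WT and 48.1% in KO. The log2 differences were 0.44 (limma adjusted p = 0.119) in WT and 0.33 (limma adjusted p = 0.267) in KO. None of the 6 genes passed from day 3 to day 4, where 21.8% of tested genes passed in WT and 17.9% in KO. With the spread taken only from the groups compared, or with weights by day, some of these small differences passed for Egr2, Dusp1 and Btg2.

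Egr1 and Ier2 were set apart at day 3 by 1 library of each genotype. Egr1 stood at 21.7 FPKM in the WT library (mouse 480) and at 18.0 FPKM in the KO library (mouse 481). The other 4 libraries read 0.629 and 0.854 FPKM (WT mice 529 and 531) and 2.07 and 1.17 FPKM (KO mice 528 and 532). The 2 high libraries lay within the day 0 range, and the lower of them was 8.71 times the highest of the rest, the highest such ratio among the 9156 genes with at least 1 FPKM in both. Ier2 read 45.7 and 42.1 FPKM in the same libraries and 20.1, 21.2, 28.3 and 21.8 FPKM in the rest, a ratio of 1.49 and rank 10 among these genes. Dusp1 (1.15) and Btg2 (1.08) were also above the other 4 libraries, and Egr2 and Ier3 were not. Thus 4 of 6 genes were highest in this pair of libraries, against 8.89% of tested genes. The pair was singled out by its Egr1 values after they were seen, so this count is a description and nothing is read from it.

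Only 9 genes with at least 1 FPKM exceeded the other 4 libraries by more than 1.5-fold. Besides Egr1 they were Il10, Ret, Fos, Tnf, S100a9, Ltbp1, Zfp36 and Nol4, named after their values were seen. Fos, the AP-1 subunit, read 243 and 231 FPKM against 122 to 133 FPKM. Zfp36, the mRNA decay factor, read 79.3 and 73.1 FPKM against 39.8 to 46.3 FPKM. The neutrophil marker sum was 171 and 173 FPKM in these libraries and 78.4 to 112 FPKM in the rest. At day 4 that sum was 163 FPKM in mouse 480 and 139 FPKM in mouse 481, and 74.9 to 131 FPKM in the other mice. Its part in the day 3 difference was not tested. At day 2 Egr1 was again highest in mice 480 and 481, 1.81-fold over the rest and rank 4, with Ier2 not set apart. At day 4 none of the 6 genes was highest in the pair, and Egr1 read 0.530, 0.578 and 0.512 FPKM (WT) and 0.309, 0.880 and 0.707 FPKM (KO). Ier2 at day 4 read 22.0, 19.2 and 22.1 FPKM and 22.6, 22.2 and 22.8 FPKM. The labels name no batch for these libraries, and the numbers of the mice are neighbours. With all libraries, the day 3 to day 2 differences of Egr1 were 1.01 in WT and 1.12 in KO (limma adjusted p = 0.312 and 0.283), and without the pair they were -0.22 and 0.15 (limma adjusted p = 0.653 and 0.788). From day 3 to day 4 Egr1 fell in 3 of 3 WT and 3 of 3 KO mice. The groups did not overlap, as for 48.2% of genes in WT and 48.1% in KO. The log2 differences of day 4 against day 3 were -1.41 and -1.64 (limma adjusted p = 0.192 and 0.137). Without the pair they were -0.17 and -0.68.

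**Figure D2:**
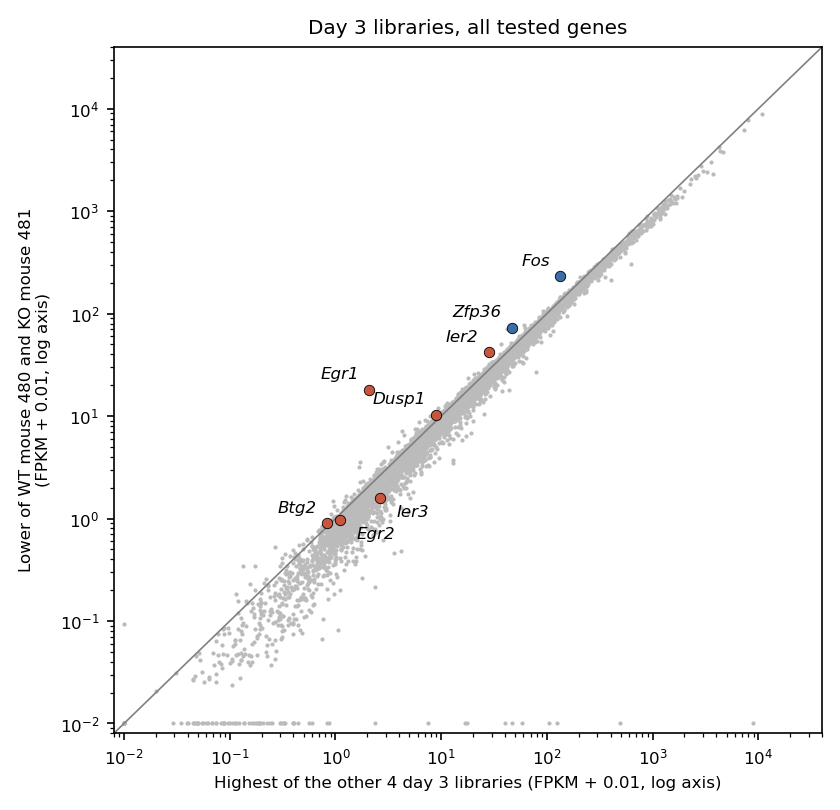
For each tested gene at day 3, the lower value of WT mouse 480 and KO mouse 481 against the highest value of the other 4 libraries, in FPKM + 0.01 on log axes, with the line of equality; red points are the 6 genes, blue points Fos and Zfp36, and points at the lower edge are listed at 0. Egr1 lies 8.71-fold above the line and Ier2 1.49-fold, whereas Egr2 and Ier3 lie below it.

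A further question was whether STING deficiency changed the 6 genes. None of them passed the threshold between KO and WT on any of the 4 days. The background in limma was 0.377% of genes at day 0 and 0.00992% on each of days 2, 3 and 4. At an unadjusted p under 0.05 there were 1099, 65, 78 and 81 genes on the 4 days in turn, and none of the 6 was among them. The log2 differences of KO minus WT at day 0 were -0.03 (95% interval -1.59 to 1.54) for Egr1, -0.08 (-0.42 to 0.26) for Egr2, -0.11 (-0.53 to 0.30) for Dusp1, -0.15 (-0.66 to 0.36) for Ier2, -0.27 (-0.63 to 0.10) for Ier3 and -0.09 (-0.51 to 0.33) for Btg2. These intervals leave room for differences in either direction. That of Egr1 was widened by the day 3 pair, since all groups share 1 spread per gene, and without those libraries it ran from -0.64 to 0.59.

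Ier3 came nearest to a difference. At day 2 its KO values of 3.21, 3.94 and 3.91 FPKM all lay below the WT values of 3.96, 4.87 and 6.21 FPKM. The log2 difference was -0.35 (95% interval -0.71 to 0.01), with a limma adjusted p of 1 (unadjusted 0.0593). Dusp1 at day 2 (-0.18, interval -0.60 to 0.24) and Ier2 at day 4 (0.10, interval -0.41 to 0.61) also had groups that did not overlap. Such groups were found for 3.91% of genes at day 2 and 3.98% at day 4. At day 0 and day 3, where the shares were 5.88% and 7.47%, all 6 genes overlapped between genotypes.

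At day 3 the differences were 0.29 (interval -1.27 to 1.86) for Egr1, -0.01 (-0.35 to 0.33) for Egr2, -0.19 (-0.61 to 0.23) for Dusp1, 0.13 (-0.38 to 0.64) for Ier2, -0.09 (-0.45 to 0.28) for Ier3 and -0.06 (-0.48 to 0.36) for Btg2. For Egr1 without the pair of libraries the difference was 0.57 (interval -0.19 to 1.33). Over its 14 alternatives it ran from -0.67 (without KO mouse 481) to 1.53 (without WT mouse 480), so its sign was not stable. At day 4 the largest difference in size was that of Btg2, at -0.17 (interval -0.59 to 0.24). The change from day 0 to day 2 also did not pass as different between genotypes for any of the 6 genes, with interaction estimates from -0.08 (Ier3) to 0.22 (Egr1). In limma 0.0694% of genes passed that interaction test, and 0% passed those for the next 2 steps. At an unadjusted p under 0.05 the counts over all genes were 409, 30 and 32.

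**Figure D3:**
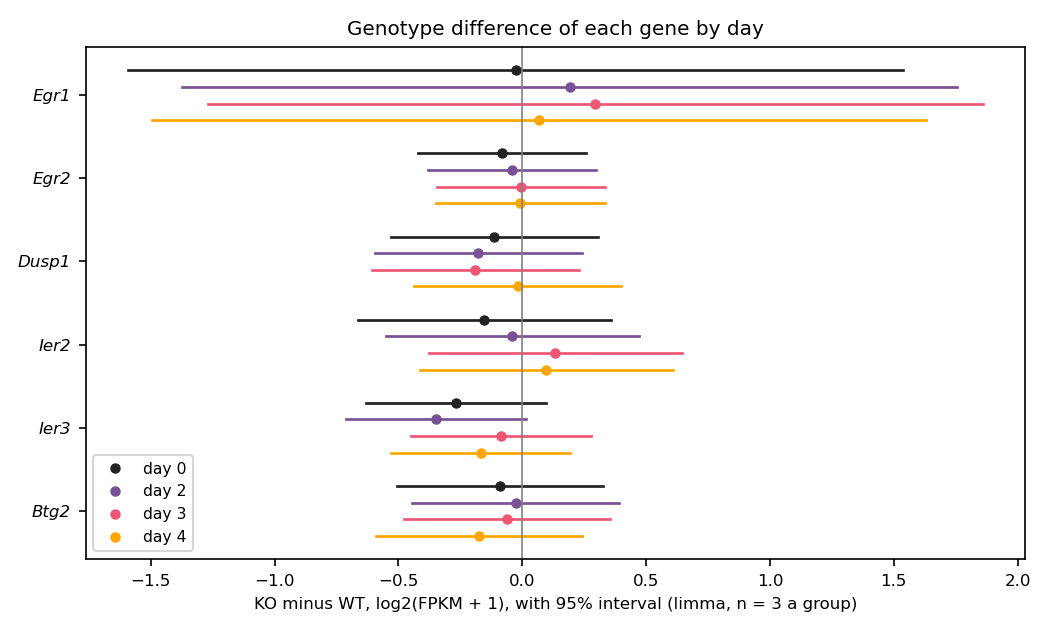
KO minus WT difference of each gene on the log2(FPKM + 1) scale, with its 95% interval from limma, by day (n = 3 mice a group). Every interval includes 0, and those of Egr1 are the widest.

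The other immediate early genes did not all fall from day 0 to day 2. Of 15 other immediate early transcription factors tested, 8 fell, 6 rose and 1 did not pass in WT, and 8 fell and 5 rose in KO. Atf3, a stress-induced repressor, fell (log2 differences of -5.01 in WT and -4.90 in KO). Klf2, a quiescence factor, fell alike (-4.21 in both). Bhlhe40, a helix-loop-helix repressor, rose (2.90 and 3.09). Of 24 signalling and mRNA decay genes of the immediate early class, 17 fell and 4 rose in WT and 16 fell and 4 rose in KO. They included Rgs1, a brake on G-protein signalling (-5.82 and -5.89), and the kinase Pim1 (-3.83 and -3.75). The medians of these lists in WT, -0.33 and -1.45, lay nearer to the 0.00 of all genes than the -3.25 of the 6 genes. The 6 genes and the lists were chosen with earlier results of these data known, so nothing is read from that contrast. Of 6 AP-1 genes, 2 rose and 2 fell in each genotype, with Fosl2 at 4.23 and 4.28 and Fosb at -4.40 and -4.35.

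Lists of partners or relatives were tested for the Egr factors, Dusp1 and Btg2. Of the 5 co-repressors and Id targets of the Egr factors, 4 fell and 1 rose in both genotypes. Nab2, which Egr factors bind and induce, fell (-2.13 in WT and -2.40 in KO), as did Id2 (-2.72 and -2.52). Of 9 other dual-specificity phosphatases, 5 fell and 4 rose in WT, and 4 fell and 3 rose in KO. Dusp6, which acts on ERK, fell (-2.09 and -2.12), whereas Dusp4 rose (1.87 and 1.74). Of the 5 BTG and TOB family and CNOT deadenylase genes, 3 fell and 2 rose in WT, and 2 fell and 2 rose in KO. The deadenylase gene Cnot7 rose (0.88 and 0.74), and Cnot8 fell (-0.60 and -0.44).

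Of the upstream routes, 13 genes of SRF and ERK signalling gave 5 rises and 1 fall in WT, and 5 rises and 3 falls in KO. Spred1, an inhibitor of the ERK route, rose (2.58 and 2.61), and Mapk3, which encodes ERK1, fell (-1.67 and -1.62). Of 10 NF-kB feedback targets 9 rose and 1 fell in both genotypes, with Traf1 at 4.88 and 5.20 and Cd83 at -2.74 and -2.44. Of 14 p53 targets, 8 rose and 4 fell in WT, and 8 rose and 5 fell in KO. Sesn1 fell (-2.87 and -2.75), as Btg2 did, whereas Mdm2, the p53 inhibitor, rose (1.22 and 1.17). Of 4 glucocorticoid receptor targets, 2 rose and 2 fell in WT, and 1 rose and 2 fell in KO. Among them Tsc22d3 fell (-0.52 and -0.28) and Klf9 rose (0.66 and 0.93). All 6 heat shock genes tested rose in both genotypes.

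**Figure D4:**
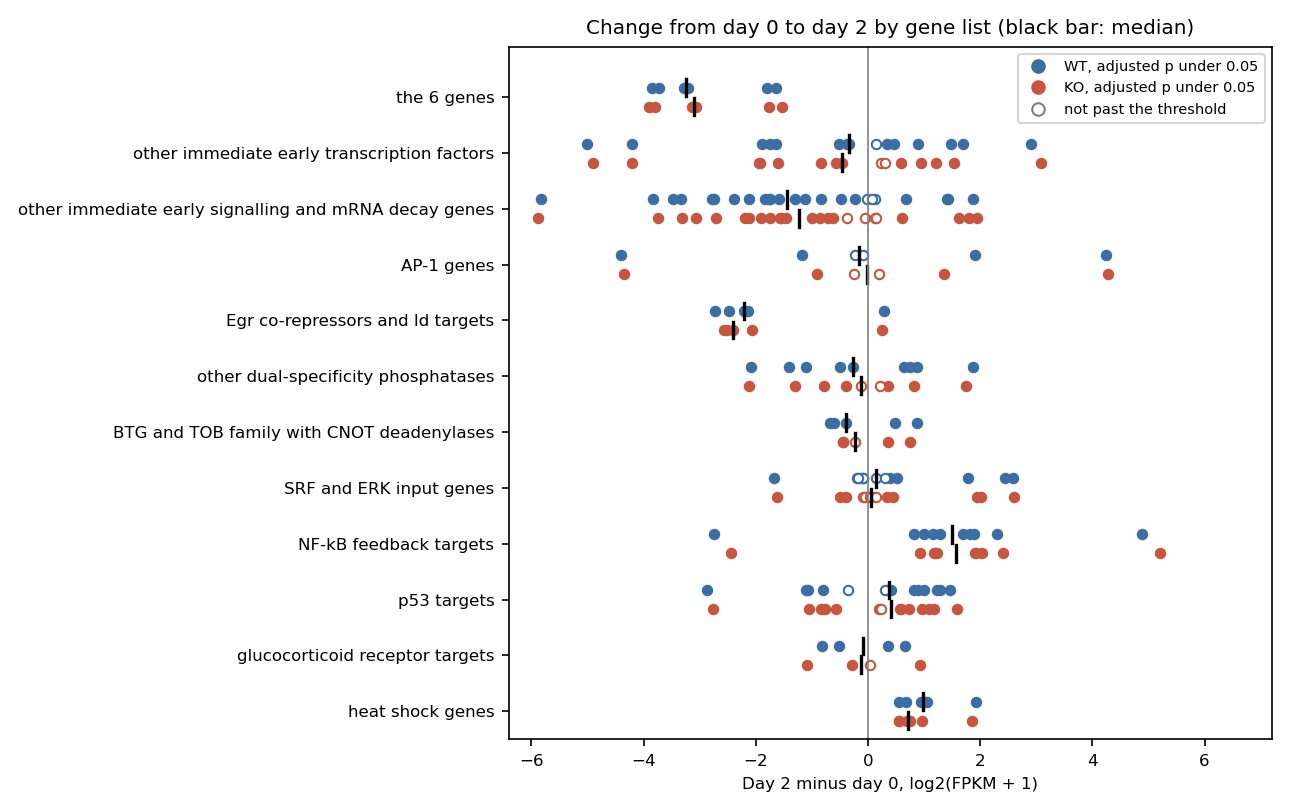
Day 2 minus day 0 difference on the log2(FPKM + 1) scale for each tested gene of the 6 and of 11 other lists (blue WT, red KO; filled points passed the threshold, open points did not; black bars are medians). The 6 genes all lie below 0, whereas the other immediate early lists spread to both sides of 0.

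Over the 24 libraries, the genes most like each of the 6 were ranked by Pearson's r of log2(FPKM + 1). This is a description across libraries that share mice and a large step from day 0. For Dusp1 they were Spsb4 (0.993), Atf5 (0.992) and Nfil3 (0.991). For Ier3 they were Vat1 (0.995), Arrb2 (0.994) and Cebpb (0.994), and for Btg2 Ramp1, Ppfia4 and Clec10a (0.993 each). For Egr2 they were Daglb (0.985), Pcp4l1 (0.984) and Lrch4 (0.982). Egr1 and Ier2 stood apart from the other 4, with lower values and each other as a near match. For Egr1 they were Ier2 (0.946), Ralgps2 (0.877) and Zfp36 (0.859). For Ier2 they were Zfp36 (0.951), Egr1 (0.946) and Shkbp1 (0.938). The 24 libraries include the day 3 pair of mice 480 and 481, in which Egr1, Ier2 and Zfp36 were all high. The part of that pair in these r values was not tested.

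Per length, the order of levels also changed. At day 0 Dusp1 was first in 6 of 6 libraries. Ier2 and Ier3 were each at place 2 in 3 libraries and at place 3 in the other 3, so their order was not stable. Egr1 came next in 5 of 6, and Egr2 was last in all. At day 2 and day 4 the order began with Ier2, Dusp1 and Ier3 in 6 of 6 libraries, and the order of Egr1, Egr2 and Btg2 varied between libraries at day 2. At day 4 Egr1 was last in 6 of 6 libraries, and Egr2 was above Btg2 in 3 libraries and below it in 3.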

How the data were processed

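RNA-seq libraries of 24 samples in 8 groups (2 genotypes by 4 days, 3 mice each) were used. Per the submitters' processing notes, the authors used HISAT2 2.0.5, Cufflinks 2.2.1 and Cuffdiff with mm10. The deposited values are FPKM for 10721 genes, and the sources name neither the rule that selected those genes nor the annotation or strand setting. FPKM are relative values, so neither absolute depth nor total RNA per cell can be read from them.

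Here log2(FPKM + 1) was tested with limma 3.58.1 (R 4.3.3): 1 mean per group, all 24 libraries sharing 1 spread per gene, a mean-variance trend and 16 residual degrees of freedom. P-values were adjusted over the 10081 genes whose mean reached 1 FPKM in some group. The pipeline was tested on simulated data. There were 15 comparisons: 4 day steps in each genotype, 4 genotype comparisons and 3 interactions. Alternatives were a pseudocount of 0.1, no filter, a 5 FPKM filter, scaling by medians, fits to the groups compared alone, weights by day, a block for the mouse, each mouse left out, and, added after the data were seen, 2 day 3 libraries left out. Gene spans are from RefSeq GRCm38.p6, and exons and 3′UTRs from GENCODE vM21. The members and lists were chosen with earlier results of these data known. Named genes are the 6 members, the 3 most correlated genes of each, and up to 4 genes per list with the smallest adjusted p.

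Mouse numbers mark the animal, so libraries with the same number are paired across days. Correlations of their deviations from the group means exceeded 0.1 in 10 of 18 pairs of libraries in WT (median 0.14) and 17 of 18 in KO (median 0.26).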

Additional observations from a re-analysis of the deposited data

How the results depend on the processing

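The falls of all 6 genes from day 0 to days 2 and 4 passed under every alternative run (Egr2 was not tested with the filter at 5 FPKM, which it did not pass), and no genotype or interaction difference of the 6 did. With the replicate block by mouse no call of a member changed. The log2 difference of Egr1 from day 0 to day 2 had a limma adjusted p of 0.00031 in WT with the block, and Ier3 from day 2 to day 3 was again the 1 member that passed in each genotype. Of 1101 values of single members under the alternatives, 1080 stayed on their side of the threshold, 19 newly passed and 2 no longer did. The sign changed in 76, none of them past the threshold in either fit. Without the day 3 libraries of mice 480 and 481, for example, the WT difference of day 3 against day 2 went from 1.01 to -0.22 for Egr1 and from 0.25 to -0.12 for Ier2. Median scaling moved the median of all genes by at most 0.01 on the log2 scale.

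Member counts changed in the steps between RANKL days, where 1, 1, 0 and 0 members passed (WT day 2 to 3, KO day 2 to 3, WT day 3 to 4, KO day 3 to 4). With only the groups compared the counts were 3, 3, 1 and 2, with weights by day 2, 3, 2 and 2, and without the day 3 libraries of mice 480 and 481 they were 2, 2, 0 and 0. With a pseudocount of 0.1, 1 passed in WT from day 3 to 4. Leaving out 1 mouse gave 0 to 2 for KO day 2 to 3 (2 without mouse 481, 0 without 528 or 532) and 0 to 1 for WT day 3 to 4 (Btg2, without mouse 480).

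Counts over the whole table moved as well. From day 3 to day 4 in WT, 2195 genes passed, against 3913 with weights by day, 990 without the 2 day 3 libraries and 913 to 1554 with 1 mouse left out (913 without mouse 529, 1424 without 531). In KO, 1809 passed, against 3307 with only the groups compared, 3609 with weights, 783 without the 2 libraries and 480 to 664 with 1 mouse left out (480 without mouse 528, 597 without 481, 664 without 532). From day 2 to day 3, leaving out 1 mouse gave 2023 to 3361 in WT (main value 3582, 2023 without mouse 531) and 1506 to 2422 in KO (main value 3105, 1627 without mouse 528, 1506 without 532). Between genotypes at day 0, 38 genes passed, against 14 with the pseudocount of 0.1, 3 with only the groups compared, 10 with weights and 19 to 84 with 1 mouse left out (19 without mouse 481, 84 without 529). At day 2, 1 gene passed, against 4 with the pseudocount of 0.1, 3 with the filter at 5 FPKM, 3 with weights and 1 to 3 with 1 mouse left out. At day 3, 1 passed, against 2 with only the groups compared, 2 with weights and 1 to 2 with 1 mouse left out. At day 4, 1 passed, against 2 with the pseudocount of 0.1, 3 with no filter, 2 with the filter at 5 FPKM, 3 with weights and 1 to 2 with 1 mouse left out. For the genotype difference in the change from day 0 to day 2, 7 passed, against 2 with the pseudocount of 0.1, 4 with only the groups compared, 4 with weights, 4 without the 2 libraries and 4 to 6 with 1 mouse left out. For the 2 later steps 0 passed, and leaving out 1 mouse gave 0 to 1.

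Limits are the 3 mice a group, unknown depth, values near 1 FPKM for Egr1, Egr2 and Btg2 after day 0, no RANKL-free cultures of days 2 to 4 among the samples, and 2 day 3 libraries that set the spread of Egr1. FPKM do not give the counts behind each value, so no counting error is stated. The causes of the changed calls were not tested.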
